A study of Homo sapiens with 3 samples.

Results

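Progress of a cell through G1, the phase before DNA synthesis, is driven by cyclin-dependent kinases (CDKs) that are active only when bound to a cyclin. D-type cyclins pair with CDK4 and CDK6 and answer growth signals, and E-type cyclins pair with CDK2 at the entry into S phase. Both kinds of complex phosphorylate the RB protein, which releases E2F transcription factors from repression, and small inhibitor proteins such as p15 and p27 hold the kinases back. Here the RNA levels of 10 such genes are described, out of 18417 genes measured. They are the D-type cyclin genes CCND1, CCND2 and CCND3, the kinase genes CDK4, CDK6 and CDK2, the E-type cyclin genes CCNE1 and CCNE2, and the inhibitor genes CDKN2B and CDKN1B, taken by symbol from the array annotation. The genes were chosen with earlier results of these arrays known, so their values are a description.

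LoVo is an established human colorectal cancer cell line, and LoVo-R8 is a derivative made resistant to irinotecan by exposing it to stepwise higher doses up to 8 μM. Irinotecan is a camptothecin derivative whose active form traps topoisomerase I on DNA. The 3 Affymetrix Human Gene 1.0 ST arrays hold RNA from LoVo-R8 cells cultured with 8 μM irinotecan, from LoVo-R8 cells cultured free of the drug, and from parental LoVo cells. All cells were grown in RPMI medium with serum. A treatment text shared by all labels places irinotecan 24 hours before RNA purification. The sources used here give neither whether parental cells received it nor whether LoVo-R8 is a single clone. Each condition has 1 array and no replicate, which limits the precision, and differences are therefore given without errors or p-values. Whether a difference belongs to the condition or to the single culture cannot be told apart. The names with and without irinotecan follow the labels of the arrays. A legend in the study's supplement says that the drug-free LoVo-R8 data were used, but the folds the study tabulates for CDKN1A and CDKN2B are those of the array labelled with irinotecan, so which LoVo-R8 array is drug-free is not settled. If these labels were exchanged, the values with and without irinotecan would change places and every difference between the LoVo-R8 arrays would change sign. What holds on both LoVo-R8 arrays against parental LoVo does not rest on them.

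Levels are on the log2 scale of the deposited robust multichip average (RMA) values, so that a difference of 1 is 2-fold. The members were compared between arrays for 1 gene at a time. Each of the 10 genes had 1 probe set, which named no other gene. Of these, 9 lay at or above the array median on all arrays, and the exception was CCNE2 in LoVo-R8 without irinotecan. The array medians were 6.94 in LoVo-R8 with irinotecan, 6.95 without it and 6.94 in parental LoVo. As a yardstick that is not an error, the 2 LoVo-R8 arrays had absolute differences with a 95th percentile of 0.53 and a 99th percentile of 0.90 over all genes. Among markers of colon epithelium, EPCAM and the keratin genes KRT8, KRT18 and KRT19 lay above the median of every array, at levels of 11.7 to 13.3. KRT20, a keratin of differentiated colonocytes, lay below it on every array, at 6.13 to 6.40. Of the 11 markers, CEACAM5 was at least 2-fold lower (-2.11 with irinotecan and -2.37 without it) and CDH17 at least 2-fold higher (1.13 and 1.07) than in parental LoVo. The leukocyte gene PTPRC was at 4.12 on all arrays and the fibroblast gene DCN lay between 4.03 and 4.10. Other fibroblast genes were higher, with COL1A1 above the median of every array, at 7.49 to 7.66, and COL1A2 at 6.67 to 6.70. In any comparison, 0 of 9 measured markers of other cell types differed 2-fold. Of all genes, 2.25% were at least 2-fold higher and 2.30% lower with irinotecan than in parental LoVo, and 1.64% and 2.78% without it. Between the LoVo-R8 arrays, 0.527% were higher and 0.114% lower with irinotecan. Nothing is read from the counts of either marker list.

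The members that lay farthest from parental LoVo on both resistant arrays were cyclins. CCND2, CCNE1 and CCNE2 were at least 2-fold lower in LoVo-R8 cells both with and without irinotecan, which makes 3 of 10 genes on each array, where 2.30% of all genes were at least 2-fold lower with irinotecan and 2.78% without it. None of the 10 was at least 2-fold higher with irinotecan, against 2.25% of all genes, and 1 of 10, CDKN2B, was so without it, against 1.64%. The median of the 10 log2 differences was -0.19 with irinotecan and -0.41 without it, and that of all genes was 0.00 in both comparisons. Both comparisons use the same parental array, so they are not independent of each other. The log2 difference was above 0 for 4 and below 0 for 6 of the 10 with irinotecan, where 40.9% and 44.7% of all genes were. It was above 0 for 3 and below 0 for 7 without irinotecan, where 48.9% and 38.5% of all genes were. The members were chosen with these differences known, and nothing is read from their counts against the background. In bulk RNA such as this, fewer cells that express a gene and less of its RNA per cell cannot be told apart.

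**Figure D1:**
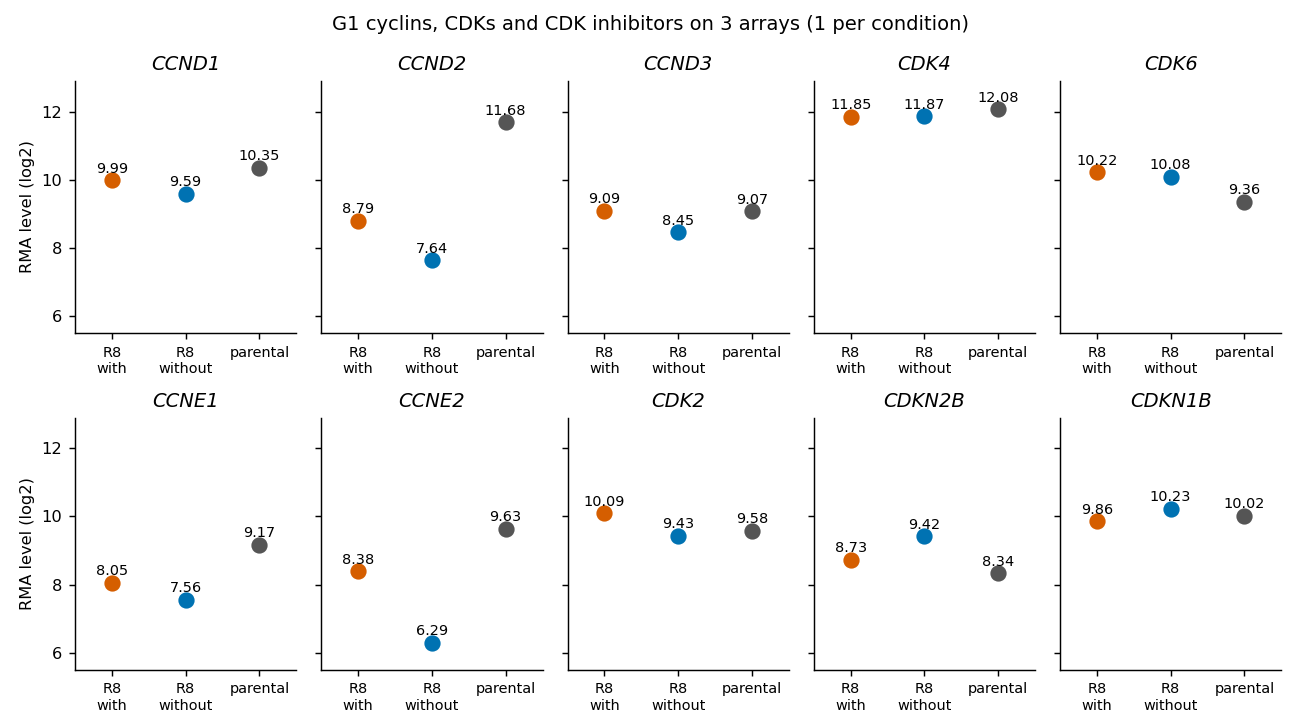
RMA log2 level (vertical axis) of each of the 10 genes in LoVo-R8 with irinotecan (orange), LoVo-R8 without irinotecan (blue) and parental LoVo (grey), 1 array each, with the value above each point. CCND2 and CCNE2 have the widest spread over the arrays, and CDK4 stays between 11.85 and 12.08.

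The D-type cyclins had unequal values. CCND2, which encodes cyclin D2 and is read by probe set 7953200, had a log2 level of 8.79 in LoVo-R8 with irinotecan, 7.64 in LoVo-R8 without it and 11.68 in parental LoVo. Both resistant arrays thus lay well below the parental array, 7.42-fold lower with irinotecan and 16.5-fold lower without it. Counted from the lowest log2 difference up among 18417 genes, CCND2 ranked 31 with irinotecan and 12 without it.

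CCND1 encodes cyclin D1, a classic target of growth factor and Wnt signalling. Its level was 9.99 with irinotecan, 9.59 without it and 10.35 in parental LoVo, with log2 differences of -0.36 and -0.76. CCND3, which encodes cyclin D3, had 9.09 with irinotecan, 8.45 without it and 9.07 in parental LoVo. Its log2 difference was 0.02 with irinotecan and -0.62 without it, so that only the drug-free array lay apart from the others. Neither CCND1 nor CCND3 reached 2-fold on either resistant array.

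Neither of the kinases that bind D-type cyclins differed 2-fold from parental LoVo. CDK4 had 11.85 with irinotecan, 11.87 without it and 12.08 in parental LoVo, differences of -0.22 and -0.20. CDK6 had 10.22 with irinotecan, 10.08 without it and 9.36 in parental LoVo, differences of 0.86 and 0.72. CDK6 was therefore 1.81-fold and 1.65-fold of the parental level, and it was the highest of the 10 genes relative to parental LoVo in the culture with irinotecan. It ranked 561 with irinotecan and 550 without it, counted from the highest difference down.

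Both E-type cyclins were lower in LoVo-R8 cells than in parental LoVo. CCNE2, which encodes cyclin E2 and is read by probe set 8151871, had a level of 8.38 with irinotecan, 6.29 without it and 9.63 in parental LoVo. It was 2.38-fold lower with irinotecan and 10.2-fold lower without it, ranks 252 and 26 from the lowest difference up. The value of 6.29 lies between the first quartile (5.42) and the median (6.95) of its array. CCNE1, which encodes cyclin E1 and is read by probe set 8027402, had 8.05 with irinotecan, 7.56 without it and 9.17 in parental LoVo. It was 2.16-fold and 3.04-fold lower, ranks 337 and 176. For both genes the order of the arrays was the same, with parental LoVo highest and LoVo-R8 without irinotecan lowest. CCND1 and CCND2 had this order too, so it is not particular to the E-type cyclins. CDK2, the kinase partner of cyclin E, had 10.09 with irinotecan, 9.43 without it and 9.58 in parental LoVo. Its log2 difference from parental LoVo was 0.52 with irinotecan and -0.14 without it, so it lay above the parental level with irinotecan, where both E-type cyclins lay below it.

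The array labelled LoVo-R8 without irinotecan held the highest level of both inhibitor genes, and the lowest of all 5 cyclin genes. CDKN2B, read by probe set 8160452, encodes p15, which binds CDK4 and CDK6 and is known as a target of TGF-beta signalling. Its level was 8.73 with irinotecan, 9.42 without it and 8.34 in parental LoVo. The difference was 0.39 with irinotecan and 1.08 without it, 1.31-fold and 2.11-fold. CDKN1B encodes p27, an inhibitor of CDK2 complexes that is regulated largely at the protein level. It had 9.86 with irinotecan, 10.23 without it and 10.02 in parental LoVo, differences of -0.16 and 0.21 that fall on either side of the parental level.

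**Figure D2:**
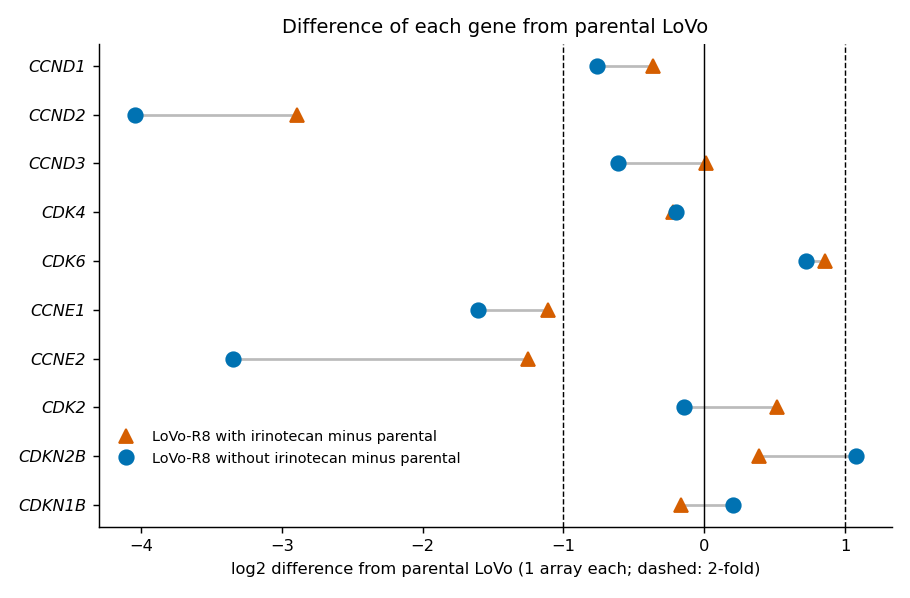
Log2 difference from parental LoVo (horizontal axis) of each gene (rows) in LoVo-R8 with irinotecan (orange triangles) and LoVo-R8 without irinotecan (blue circles), with dashed lines at 2-fold. CCND2 (-2.89 and -4.05), CCNE2 (-1.25 and -3.35) and CCNE1 (-1.11 and -1.60) lie left of the lower line on both arrays, and CDKN2B lies right of the upper line only without irinotecan.

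The 2 LoVo-R8 arrays compare the same resistant line with and without the drug, and no parental array enters. The directions rest on the labels of these arrays, which are not settled. CCNE2 was 4.27-fold higher with irinotecan than without it, a log2 difference of 2.10 that ranked 4 among 18417 genes. CCND2 was 2.23-fold higher (1.15), rank 57. These were 2 of 10 genes at least 2-fold higher, where 0.527% of all genes were, and 0 of 10 were at least 2-fold lower, against 0.114%. All 5 cyclin genes had a higher level with irinotecan, by between 0.40 (CCND1) and 2.10 (CCNE2), while 39.4% of all genes had a difference above 0. CCND3 (0.63), CCNE1 (0.49) and the kinase gene CDK2 (0.66) were also above 0, and CDK6 (0.14) and CDK4 (-0.02) were near it.

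Both inhibitor genes had a lower level with irinotecan than without it. CDKN2B had a difference of -0.69, rank 113 from the lowest up among 18417 genes, and CDKN1B of -0.37. Of all genes, 48.4% had a difference below 0. The difference between the LoVo-R8 arrays was also taken as a share of the log2 gap between LoVo-R8 without irinotecan and parental LoVo. This share was 62.6% for CCNE2, 30.6% for CCNE1 and 28.5% for CCND2. These genes were named as at least 2-fold lower with irinotecan too, so their shortfall from parental LoVo follows from that choice. Of the other cyclin genes, CCND1 had 52.5% and CCND3 102.5%, which put CCND3 at about its parental level with irinotecan. The inhibitor genes had 63.9% (CDKN2B) and 179.5% (CDKN1B). The kinase genes had 456.7% (CDK2, with a gap of only -0.14), -9.0% (CDK4) and -18.8% (CDK6). The drug-free array enters both the difference and the gap, and the part of that 1 array in these shares was not tested.

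**Figure D3:**
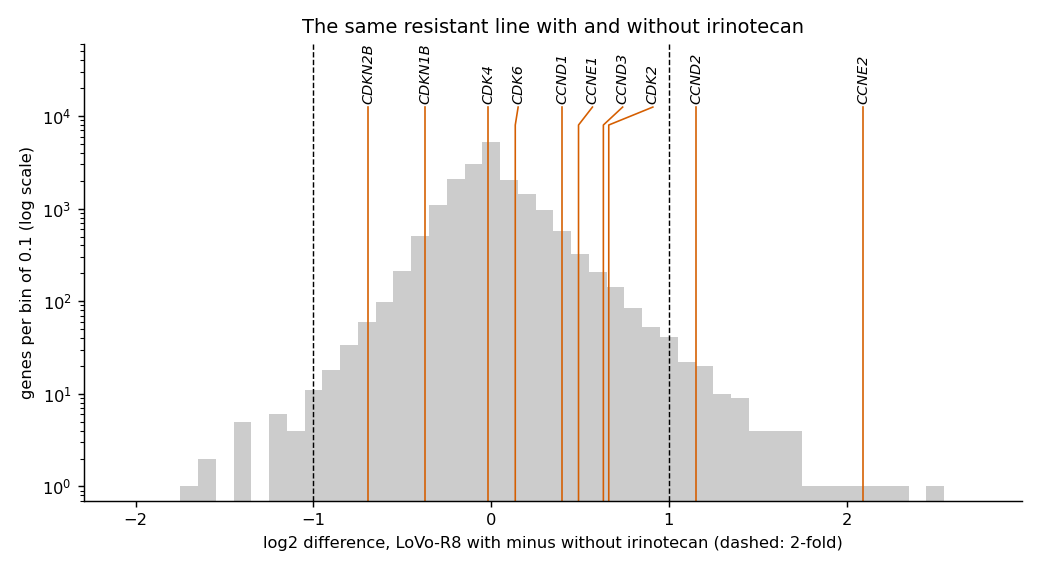
Number of genes (vertical axis, log scale) by the log2 difference of LoVo-R8 with minus without irinotecan (horizontal axis), for 18417 genes in bins of 0.1, with orange lines at the 10 genes and dashed lines at 2-fold. CCNE2 (2.10) and CCND2 (1.15) lie past 2-fold, and CDKN2B (-0.69) is the lowest of the 10, with directions that rest on the array labels.

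Promoter sequence was looked at for the members that could be matched. RefSeq windows of GRCh38.p14 from 250 bases before to 50 bases after a gene start were matched for 6 of the 10 genes, namely CCND3, CDK4, CDK6, CCNE1, CDKN2B and CDKN1B. The windows of CCNE1, CDKN2B and CDK4 are shown as matched members with unlike differences from parental LoVo. CCNE1 was at least 2-fold lower on both resistant arrays, and CDK4 was near its parental level. CDKN2B was at least 2-fold higher only on the array labelled without irinotecan (1.08, against 0.39 with it). CDK6, also matched but not shown, was at 0.86 and 0.72. Capitals mark matches on either strand to the GC box GGGCGG, the core bound by Sp1, and to the E-box CACGTG, a binding sequence of MYC. The words do not overlap each other in these windows. The windows are chr19:29811741-29812040 on the plus strand for CCNE1, chr9:22009256-22009555 on the minus strand for CDKN2B and chr12:57752261-57752560 on the minus strand for CDK4.
CCNE1: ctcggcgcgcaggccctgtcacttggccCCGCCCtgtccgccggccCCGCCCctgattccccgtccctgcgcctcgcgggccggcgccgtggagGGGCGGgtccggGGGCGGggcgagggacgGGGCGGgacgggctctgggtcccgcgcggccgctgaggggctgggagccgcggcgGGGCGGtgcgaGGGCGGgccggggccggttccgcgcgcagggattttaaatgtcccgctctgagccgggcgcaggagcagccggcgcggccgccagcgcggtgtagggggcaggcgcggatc
CDKN2B: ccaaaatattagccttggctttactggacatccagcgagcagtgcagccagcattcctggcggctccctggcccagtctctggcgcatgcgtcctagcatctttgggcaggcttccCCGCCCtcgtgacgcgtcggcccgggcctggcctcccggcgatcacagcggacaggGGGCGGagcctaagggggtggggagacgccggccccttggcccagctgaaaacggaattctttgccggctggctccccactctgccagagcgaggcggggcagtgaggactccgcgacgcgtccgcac
CDK4: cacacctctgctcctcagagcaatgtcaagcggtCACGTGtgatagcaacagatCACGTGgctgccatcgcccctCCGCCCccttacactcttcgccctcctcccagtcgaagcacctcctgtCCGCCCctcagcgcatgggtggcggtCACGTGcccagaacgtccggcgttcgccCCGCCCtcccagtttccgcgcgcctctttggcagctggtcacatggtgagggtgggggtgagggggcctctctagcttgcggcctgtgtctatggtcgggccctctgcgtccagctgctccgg
The CCNE1 window is 81.0% G and C and holds 7 GC boxes, the CDKN2B window holds 2 and the CDK4 window 3. A GC box is in 45.0% of all 35116 windows of this length, so its presence sets none of them apart. CDK4 has 3 E-boxes, at -216, -196 and -101 from the gene start, and 7.26% of all windows hold at least 1. The E-box is not particular to CDK4 among the matched members, since a CDK6 window also has it, at base 31 of the gene. The GC box was added to the search after the levels had been seen. The cyclic AMP response element TGACGTCA, in 1.85% of all windows, and the TATA word TATAAA, in 11.5%, were in 0 of the windows of these 6 genes.

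The rest of the RB and E2F pathway was described by lists of other genes, chosen from textbook knowledge with earlier results known. Target genes of E2F that act in DNA synthesis were mostly on the same side as the E-type cyclins, below parental LoVo in 17 of 22 cases with irinotecan, against 44.7% of all genes, and in 21 of 22 without it, against 38.5%. Of the 22 measured, 1 was at least 2-fold lower in LoVo-R8 with irinotecan, against 2.30% of all genes, and 7 were so without it, against 2.78%. At least 2-fold higher were 0 of 22 with irinotecan, against 2.25% of all genes, and 0 of 22 without it, against 1.64%, and these shares of all genes apply to each list that follows. Their median log2 difference from parental LoVo was -0.27 with irinotecan and -0.90 without it. CDC6, which loads the replicative helicase, had 9.02 with irinotecan, 8.11 without it and 10.24 in parental LoVo (-1.22 and -2.13). GINS2, a helicase subunit gene, had differences of -0.50 and -1.47, the uracil glycosylase gene UNG -0.41 and -1.40, and the helicase gene MCM4 -0.39 and -1.38. GINS1 (-0.27 and -1.19), MCM3 (-0.16 and -1.14) and MCM7 (-0.37 and -1.11) passed 2-fold only without irinotecan. CDT1, the partner of CDC6 in licensing, was on the other side, at 0.87 and 0.46. Between the LoVo-R8 arrays, all 22 had a higher level with irinotecan, by between 0.13 and 0.99, with a median of 0.62. Of all genes, 39.4% had a difference above 0. None of the 22 reached 2-fold between these arrays, where 0.527% of all genes were higher and 0.114% lower.

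E2F binding words were common in the promoters of these targets. The 4 words searched on both strands were TTTCGCGC, TTTGGCGC, TTTCCCGC and TTTGCCGC, and at least 1 was in a window of 13 of the 21 listed targets that could be matched (61.9%), against 3.99% of all 27305 genes with a window. The list was chosen as known E2F targets, so this share describes the list and not these arrays. A word was also in 5 of 11 matched RB and E2F genes, 1 of 6 later cyclins and CDK1, and 0 of 5 other CDK inhibitors. Among 16 matched regulators of G1 kinases and turnover, CDC25A was the 1 gene with a word. None of the 6 matched members had one of the 4 words. Stretches of 30 bases around a word are shown for 4 genes with a word that were at least 2-fold lower without irinotecan, to give the sequence beside the values above, with the word in capitals. GINS2 carries TTTCCCGC on the opposite strand, and its capitals are the reverse complement. They lie at chr17:40287875-40287904 on the plus strand for CDC6, chr16:85688967-85688996 on the minus strand for GINS2, chr12:109098098-109098127 on the plus strand for UNG and chr3:48188443-48188472 on the minus strand for CDC25A.
CDC6: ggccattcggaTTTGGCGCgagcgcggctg
GINS2: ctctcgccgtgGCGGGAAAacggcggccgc
UNG: gagggaggtttTTTGCCGCgaaaagaccac
CDC25A: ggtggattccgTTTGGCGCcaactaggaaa
In CDC6 the word starts at base 8 of the gene, and in GINS2, UNG and CDC25A it starts at -31, -63 and -44. A match is a word in a sequence and does not show that E2F binds there in these cells. Only 4 exact words were searched, so their absence, as in CCNE1, does not show that a promoter lacks an E2F site.

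CDC25A encodes the phosphatase that removes inhibitory phosphate from CDK2. Among 18 measured regulators of G1 kinase activity and of cyclin or p27 turnover, it was the 1 gene at least 2-fold lower, on both resistant arrays. Its level was 7.67 with irinotecan, 6.70 without it and 8.75 in parental LoVo (-1.08 and -2.05), the same order of arrays as for CCNE1 and CCNE2. SKP2, whose protein marks p27 for degradation, had 11.19 with irinotecan, 10.19 without it and 10.68 in parental LoVo (0.51 and -0.49). FBXW7, whose protein marks cyclin E for degradation, had differences of -0.05 and -0.13, and MYC of 0.54 and 0.53. None of the 18 was at least 2-fold higher in any comparison. Between the LoVo-R8 arrays, where 0.527% of all genes were, SKP2 (0.99) and CDC25A (0.97) lay just under 2-fold higher with irinotecan. Of the 18, 13 had a difference above 0 and 4 below 0 between these arrays, against 39.4% and 48.4% of all genes. Their median difference from parental LoVo was 0.00 with irinotecan and -0.05 without it.

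Other CDK inhibitors were above parental LoVo in 3 of 5 cases with irinotecan, against 40.9% of all genes, and in 5 of 5 without it, against 48.9%. Of these, CDKN1A was at least 2-fold higher without irinotecan, and 0 were at least 2-fold lower. CDKN1A, which encodes the p53 target p21, had 10.18 with irinotecan, 10.67 without it and 9.22 in parental LoVo (0.95 and 1.44). CDKN2A, the neighbour of CDKN2B, had 8.25 with irinotecan, 7.79 without it and 7.29 in parental LoVo (0.97 and 0.51). Its order of arrays differed from that of CDKN2B, with the culture with irinotecan highest. CDKN1C, CDKN2D and CDKN3 lay between -0.22 and 0.25 in both comparisons with parental LoVo.

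Among 13 RB and E2F genes, E2F5, which encodes a repressor-type E2F, was at least 2-fold higher on both resistant arrays, and 0 were at least 2-fold lower. E2F5 had 9.95 with irinotecan, 10.31 without it and 8.47 in parental LoVo (1.48 and 1.84). RBL1, which encodes the RB relative p107, had differences of -0.49 and -0.97, E2F4 of -0.74 and -0.89, and the activator gene E2F1 of -0.27 and -0.54. RB1 itself was at 0.04 and 0.23. E2F8, an atypical repressor of E2F targets, was 0.92 higher with than without irinotecan. E2F7 went the other way between these arrays, at -0.47, and had differences from parental LoVo of -0.83 and -0.37. The list's median was 0.00 with irinotecan and -0.37 without it.

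Genes of the later cyclins and of CDK1 were within 2-fold of parental LoVo, apart from CCNB1 without irinotecan. CCNB1, the mitotic cyclin B1, had differences of -0.83 with irinotecan and -1.19 without it. CCNA2, the cyclin A2 gene of S phase, had -0.11 and -0.19, CCNB2 -0.39 and -0.57, and CDK1 0.25 and 0.18. The median of the 6 was -0.13 with irinotecan and -0.17 without it. Between the LoVo-R8 arrays 0 of them differed 2-fold, where 0.527% of all genes were higher and 0.114% lower with irinotecan. A count of 0 is near these shares, and nothing is read from it.

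**Figure D4:**
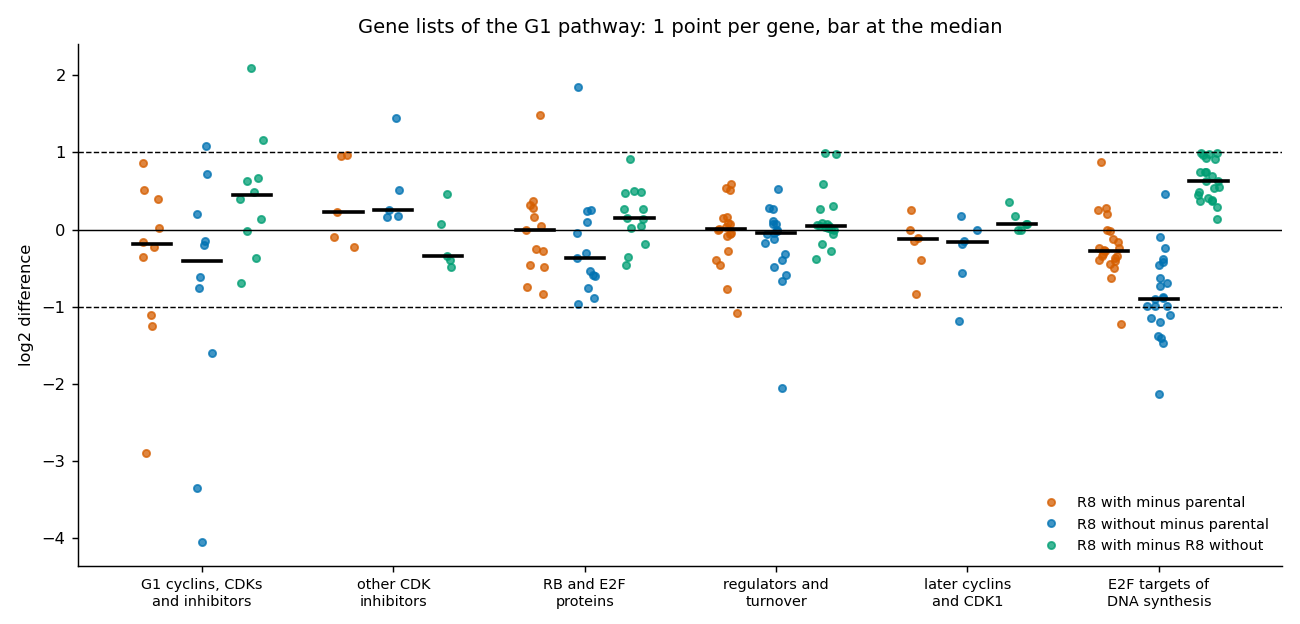
Log2 difference (vertical axis) of each measured gene of 6 lists (horizontal axis) for LoVo-R8 with irinotecan minus parental LoVo (orange), LoVo-R8 without irinotecan minus parental LoVo (blue) and LoVo-R8 with minus without irinotecan (green), where black bars mark the median of each list and dashed lines mark 2-fold. The E2F targets of DNA synthesis have medians of -0.27, -0.90 and 0.62.

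Genes with a pair of differences from parental LoVo closest to those of CCND2 and of CCNE2 were picked by Euclidean distance over these 2 differences, among genes at or above the array median on at least 1 array. For CCND2 they were MT1E, a metallothionein gene (distance 0.334), ACSL1, an acyl-CoA synthetase gene (0.416), the protease inhibitor gene SPINK6 (0.475), TOX3 (0.565) and the glutathione peroxidase gene GPX2 (0.567). MT1E had differences of -2.63 and -3.84, but the metallothionein genes are near-identical copies of each other, and its value is uncertain for that reason. For CCNE2 they were PLOD2, a collagen lysyl hydroxylase gene (0.496), the glutaredoxin gene GLRX (0.651), the sterol synthesis gene SQLE (0.912), NRN1 (0.933) and the cathepsin gene CTSE (0.935). PLOD2 had differences of -1.37 and -2.86. ACSL1, SPINK6 and TOX3 had levels of 5.37, 4.31 and 6.14 in LoVo-R8 without irinotecan, and PLOD2 and GLRX had 5.41 and 5.73, all under the median of that array. None of these 10 neighbours is in the lists of G1 pathway genes. With 3 arrays a shared pattern rests on 2 numbers per gene.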

How the data were processed

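Total RNA (300 ng per sample) from 3 cultures was hybridised by the authors to Affymetrix Human Gene 1.0 ST arrays, with 1 array for each condition. The authors deposited log2 levels from RMA, which corrects the background, makes the distributions of the arrays alike by quantiles and summarises the probes of a probe set by median polish. Affymetrix Expression Console 1.1 is named in the submitters' processing notes, and the methods of the study name R and Bioconductor. The table holds 33297 probe sets with 0 missing values, and 26.1% of them have equal values on at least 2 arrays, but 0 of the members do. No genome build is given for the table in the sources used here.

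Samples were grouped by their titles, although the labels of the LoVo-R8 arrays and the study's description of them conflict. The 19460 probe sets that name 1 gene gave 18417 genes, with the probe set of highest mean level standing for a gene. Of the other probe sets, 1754 name several genes and 12083 are unnamed here. Log2 levels were subtracted between arrays and counted at 2-fold. No test was run, since no condition has a replicate. The methods of the study also removed probe sets by MAS5 detection calls, which were not used here. Python 3.11.15, numpy 2.4.6, pandas 2.3.3, statsmodels 0.14.6 and matplotlib 3.10.9 were used, and the code was tested on simulated data. Alternatives were median centring, repeated quantile normalization, loess of each array on the mean array (span of 0.3 with 3 iterations), the mean over probe sets of a gene, thresholds of 1.5-fold and 3-fold, and filters at the array median and the 25th percentile.

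The members and lists were chosen with earlier results of these data known. All members are named. From each other list, the rule named the genes at 2-fold in a comparison, or otherwise up to 4 with the largest differences. For CCND2 and CCNE2 it named the 5 nearest genes. All other named genes were chosen for their role after their values had been seen. Some listed genes were not analysed here.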

Additional observations from a re-analysis of the deposited data

How the results depend on the processing

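With 1 array per condition, no replicate could be left out. No paired analysis was possible because no condition has a second sample. Each of the 10 genes kept its side of 2-fold in all 3 comparisons under median centring, loess and repeated quantile normalization. The mean over probe sets returns the deposited values of these genes, since each has 1 probe set, so it is no check on them. CDK2 without irinotecan lay between -0.15 and -0.03 over the 3 scalings. No difference of the 10 genes at 2-fold was reversed. Both filters on dim genes keep a gene that passes on at least 1 of the 2 arrays compared. They could therefore remove none of the 10, and their unchanged counts are no check. The median of the kinase regulators without irinotecan, -0.05 as deposited, was 0.02 under loess and 0.03 under repeated quantile normalization. Their median with minus without irinotecan, 0.05 as deposited, was -0.01 under repeated quantile normalization.

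The counts depended on the threshold. At 1.5-fold, 1 of the 10 genes was higher with irinotecan than in parental LoVo (5.79% of all genes were), 2 were higher (4.37%) and 5 lower (8.84%) without irinotecan, and 4 were higher (2.87%) and 1 lower (1.08%) with than without irinotecan. At 3-fold, 1 was lower with irinotecan (0.831%), 0 were higher without it (0.483%) and 1 was higher with than without it (0.0706%). The other pathway lists had 5, 13, 18, 6 and 22 measured genes. At 1.5-fold, 5 of these genes were higher (5.79% of all genes) and 7 lower (7.19%) with irinotecan. Without it 25 were lower (8.84%), and 16 were higher with than without it (2.87%). At 2-fold as deposited, 9 were lower without irinotecan (2.78%), 1 was higher with it (2.25%) and 0 were higher with than without it (0.527%). At 3-fold the counts were 0 higher (0.733%) and 0 lower (0.831%) with irinotecan, and 1 higher (0.483%) and 2 lower (0.977%) without it. Again at 2-fold, 2 were higher with irinotecan under repeated quantile normalization, and 3 were higher with than without irinotecan under median centring. The main counts of these lists at 2-fold are given in the report. No measure of signal over background was used. CCNE2 is the 1 of the 10 genes with a level below an array median.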

Other observations

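Beyond the lists above, 39 other cyclins, cyclin-dependent kinases, CDK-like kinases and CDK5 activators were found by symbol, a search added after the data were seen. Their median log2 difference from parental LoVo was -0.06 in LoVo-R8 with irinotecan and -0.07 without it. In LoVo-R8 with irinotecan 0 were at least 2-fold higher (2.25% of all genes were) and 1 lower (2.30%). Without it 1 was higher (1.64%) and 1 lower (2.78%). Counts this small are near these shares, and nothing is read from them. The lower gene on both arrays was CCNI2, a cyclin I relative, with a level of 7.39 with irinotecan, 6.79 without it and 9.60 in parental LoVo (-2.21 and -2.81). The higher one was CCNG2, which encodes cyclin G2, an unconventional cyclin known to be induced when proliferation stops, with 8.93 with irinotecan, 9.26 without it and 8.15 in parental LoVo. Like CDKN2B, CCNG2 had its highest level in LoVo-R8 without irinotecan. The transcription kinase gene CDK12 had differences of -0.92 and -0.72, and CDK18 of 0.78 and 0.65. Between the LoVo-R8 arrays 0 of the 39 differed 2-fold, where 0.527% of all genes were at least 2-fold higher and 0.114% lower with irinotecan. The differences of the 39 ran between -0.46 and 0.60.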
